A study of Homo sapiens with 4 samples.

Results

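The genes described here are 31 targets of p53 other than CDKN1A, chosen by symbol from a fixed list and read in 4 single-cell RNA libraries. All 31 were found among the 37468 features counted. They fall by role into genes that limit p53, genes of arrest and checkpoints, genes of cell death, genes of repair and nucleotide supply, genes of metabolism, the secreted factor GDF15, and FBXO22 and RPS27L. Of the 31, 30 had a mean level of at least 5 CPM over the libraries and were compared. CPM is the number of UMIs, counted RNA molecules, of a gene per 1000000 nuclear-encoded UMIs of the library. The 31st gene, SPATA18, lay below that level.

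MSTO-211H is an established human mesothelioma line. It was grown in suspension without serum, and the series text calls the cells mesothelioma-initiating. The genotype of every library is given as WT. Control received vehicle, Radiation received 4 Gy, Drug received 10 µM QTP, and Drug_Radiation received 10 µM QTP and 4 Gy the day after. The series title places QTP under dopamine receptor inhibition, and cells were pooled, dissociated and fixed 48 h after irradiation. Each group is 1 library of 1 line, so no difference has a replicate check, no test was made, and the 95% intervals given in brackets cover counting error only.

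The transcription factor p53 is kept low in unstressed cells because MDM2, itself a p53 target, marks it for degradation. After DNA damage the kinases ATM, ATR and their checkpoint partners modify p53 and MDM2, p53 builds up, binds a pair of adjoining ten-letter motifs near its target genes and raises their transcription. The targets halt the cell cycle, repair DNA, change metabolism or start cell death, and some of them feed back to switch p53 off.

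Total UMIs ran from 9249567 in Control through 14859709 in Radiation and 90903552 in Drug to 149368293 in Drug_Radiation, over 3183, 2425, 3802 and 6990 cells. The median UMIs per cell were 2318, 5299, 20405 and 18024.5 in the same order. QTP and sequencing depth therefore cannot be told apart by the design, and Radiation cells were deeper than Control cells too. No cell barcode was shared between any pair of libraries. The mesothelial keratins KRT8 and KRT18 and vimentin (VIM) were abundant, and the summed mesothelial markers ran from 7603 to 10293 CPM. The other mesothelial markers were mixed. CALB2 lay between 27.6 and 49.2 CPM and MSLN between 8.27 and 14.05 CPM. WT1 lay between 1.12 and 1.89 CPM and KRT19 at 0.390 CPM or below. UPK3B had 0 UMIs in Control and Radiation, and PDPN had 0 in Radiation. Markers of fibroblasts summed to 38.9 to 63.2 CPM and immune markers to 16.7 to 41.7 CPM, nearly all of it CD68. Endothelial, epithelial and erythroid markers summed to at most 2.79 CPM in any library.

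The DNA near the starts of these genes was searched for the p53 motif, because members that share a regulator can be compared with the letters it binds. RefSeq (GRCh38.p14) gave 36 windows for 23 members, each from 250 bases before to 50 after a transcription start. The search used the p53 consensus site as a pair of adjoining ten-letter motifs, with at most 3 mismatches in 20 letters and the 4 central C and G letters kept. The site reads the same on both strands, so a single search covers both. It was found in 9 of the 36 windows (25%), which belong to 8 genes, against 1.12% of all 35097 windows in the table. An exact ten-letter motif was found in 7 of the 36 windows (19.4%) against 6.64% of all. The 8 sites follow, 5′ to 3′ on the strand of the gene, with the central 4 letters of each motif in capitals.
MDM2: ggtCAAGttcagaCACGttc
FAS: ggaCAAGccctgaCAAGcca
AEN: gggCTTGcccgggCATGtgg
DDB2: aagCTGGtttgaaCAAGccc
FDXR: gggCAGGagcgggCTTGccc
SESN1: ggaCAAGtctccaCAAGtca
GDF15: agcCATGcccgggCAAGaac
RPS27L: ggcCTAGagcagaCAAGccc
The MDM2 site lies at chr12:68808923-68808942 in an intron of MDM2, upstream of an internal start, and has 2 mismatches. The SESN1 site, at chr6:109009018-109009037, is also intronic and has 3 mismatches. In FAS the site is at chr10:88991309-88991328, with 2 mismatches, inside exons of noncoding FAS transcripts and introns of coding ones. Those of AEN (chr15:88621306-88621325, 2 mismatches) and DDB2 (chr11:47214969-47214988, 1 mismatch) overlap an annotated exon in its untranslated part. So do those of FDXR (chr17:74872996-74873015, 3 mismatches) and RPS27L (chr15:63157527-63157546, 3 mismatches). The GDF15 site (chr19:18386186-18386205, 3 mismatches) starts 28 bases after the start. It overlaps both untranslated and coding sequence of the 3 transcripts annotated there. A match is a description of letters and not a measured binding event, and members without a match may hold sites outside these windows.

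A longer stretch is shown for a pair of genes with unlike values: MDM2, which had more RNA in the irradiated library with and without QTP, and SESN1, which did not reach the call in either comparison. Each stretch is the 250 bases before a listed start, on the strand of the gene, with the 20-letter site in capitals. They lie at chr12:68808767-68809016 on the plus strand and chr6:109008989-109009238 on the minus strand.
MDM2 upstream: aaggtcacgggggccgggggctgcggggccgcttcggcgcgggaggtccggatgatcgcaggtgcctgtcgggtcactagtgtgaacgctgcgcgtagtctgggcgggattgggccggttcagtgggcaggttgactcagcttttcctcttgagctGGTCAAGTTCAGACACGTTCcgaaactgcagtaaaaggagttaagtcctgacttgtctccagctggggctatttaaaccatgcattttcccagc
SESN1 upstream: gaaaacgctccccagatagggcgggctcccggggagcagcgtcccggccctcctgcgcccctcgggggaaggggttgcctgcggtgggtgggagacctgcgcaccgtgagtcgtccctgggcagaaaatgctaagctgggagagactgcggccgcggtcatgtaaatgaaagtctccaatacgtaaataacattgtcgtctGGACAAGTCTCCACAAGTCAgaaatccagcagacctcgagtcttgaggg
Both stretches hold the 20-letter site, which in SESN1 ends nearer to the start.

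Radiation without QTP is read as Radiation against Control. A member was called higher where the log2 ratio of CPM plus 1 was at least 0.5, which is 1.41-fold, and lower at -0.5 or below. Of 30 members 14 were called higher, beside 16.2% of all 9835 genes compared, and 0 were called lower, beside 4.89%. By the 2-fold size 3 members (BTG2, GDF15 and PIDD1) were higher, beside 1.61% of all genes. The median log2 ratio of the members was 0.44 and that of all genes 0.12, and 23 of 30 members lay above the latter. With QTP, Drug_Radiation against Drug, 4 members (PLK3, BBC3, MDM2 and GDF15) were called higher, beside 0.986% of all genes, and 0 lower, beside 4.51%. None reached 2-fold there, beside 0.163% of all genes. The medians were 0.11 for members and -0.14 for all genes, with 27 of 30 members above the median of all genes.

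Across both comparisons 21 of 30 members lay above the median of all genes each time, beside 22.5% of all genes, and 1 lay below it each time, beside 22.5%. The highest of the 4 levels was in an irradiated library for 23 of 30 members, which held for 27.6% of all genes, and in Drug for 5, which held for 65.4% of all genes. Control had the lowest level for 23 members, and for 57.9% of all genes. The ratio was above 0 in both radiation comparisons for 13 of 30 members, beside 13.4% of all genes. MDM2 and GDF15 were called higher in both radiation comparisons. SYVN1, no member and named after its values were seen, was the only other of the 9835 genes to be so (0.0305% in all).

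**Figure D1:**
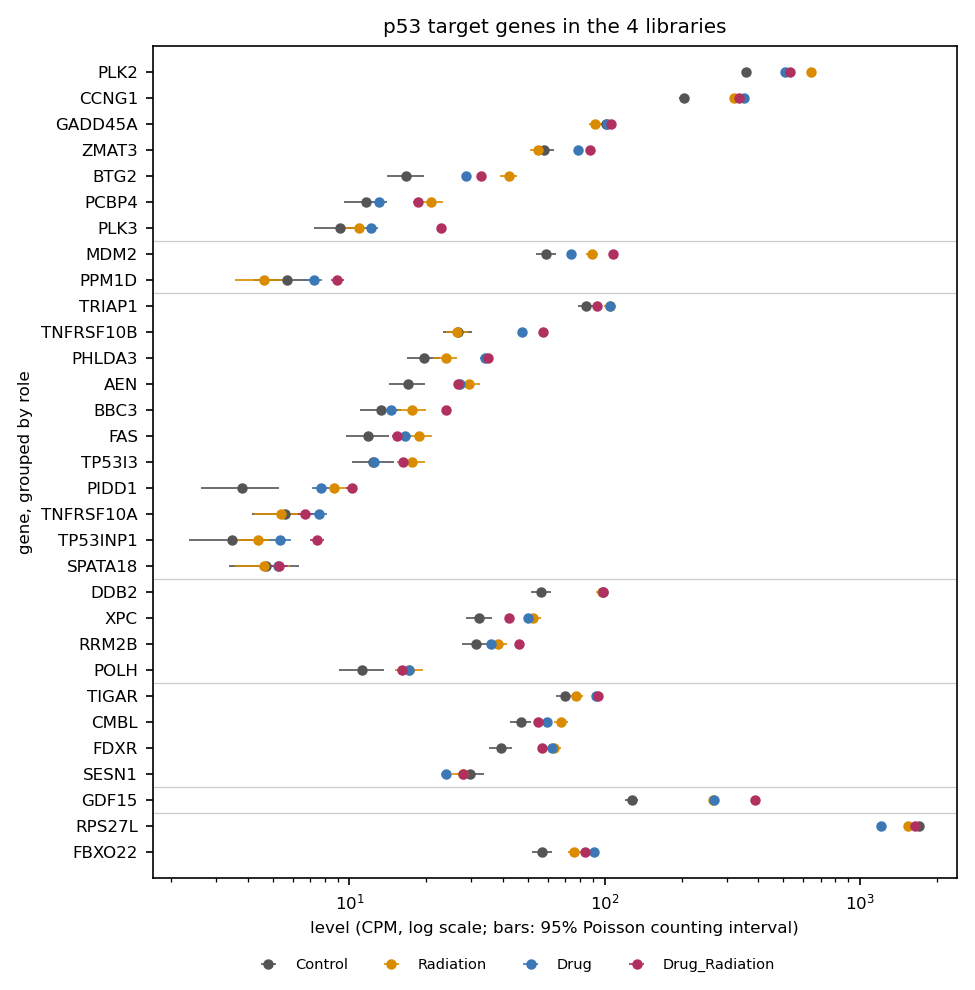
Level of each of the 31 members in Control, Radiation, Drug and Drug_Radiation, in CPM on a log axis, with bars for the 95% Poisson counting interval and lines between roles. Control is the lowest point for 23 of the 30 members compared, and bars are widest in Control, the shallowest library.

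Of the genes that limit p53, MDM2, the ubiquitin ligase, had 58.9 CPM in Control against 88.9 in Radiation, and 73.6 in Drug against 108 in Drug_Radiation. The irradiated library was the higher one of each pair and Drug_Radiation the highest of the 4. Its log2 ratio was 0.59 (0.45 to 0.74) without QTP and 0.54 (0.51 to 0.59) with it, a difference of -0.04 between the arms. Under TMM scaling the ratios were 0.50 without and 0.72 with QTP, so the order of the arms turned. PPM1D, a phosphatase that removes damage marks from p53 and its kinases, had 5.70 CPM in Control against 4.61 in Radiation, and 7.24 in Drug against 8.97 in Drug_Radiation. It was low throughout, and the intervals of Control and Radiation overlapped. The log2 ratio of -0.26 (-0.86 to 0.25) without QTP included 0, and with QTP it was 0.28 (0.17 to 0.45), under the call. The MDM2 gene lies at chr12:68808176-68850686 and PPM1D at chr17:60600183-60666280 (GRCh38, GENCODE 29).

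Of the 7 genes of arrest and checkpoints 4 were called higher without QTP, beside 16.2% of all genes, and 1 with it, beside 0.986%. BTG2, which slows entry into S phase, stood at 16.7 CPM in Control against 42.00 in Radiation, and 28.7 in Drug against 32.6 in Drug_Radiation. Radiation was the highest library and Control the lowest, and the log2 ratio of 1.28 (1.07 to 1.60) without QTP stood beside 0.18 (0.11 to 0.26) with it. PLK2, a stress-induced polo-like kinase, stood at 357 CPM in Control against 640.1 in Radiation, and 508 in Drug against 531 in Drug_Radiation. Radiation was again the highest, with ratios of 0.84 (0.78 to 0.90) and 0.06 (0.05 to 0.08). CCNG1 (cyclin G1), which brings a phosphatase to MDM2, had 204 CPM in Control against 322 in Radiation, and 350.3 in Drug against 334 in Drug_Radiation. Control alone was low and the other libraries lay close together, so that the ratio was 0.65 (0.58 to 0.73) without QTP and -0.07 (-0.09 to -0.05) with it. For PCBP4, an RNA-binding protein tied to G2 arrest, the levels were 11.6 CPM in Control against 20.8 in Radiation, and 13.02 in Drug against 18.5 in Drug_Radiation. Both irradiated libraries were above their partners, with ratios of 0.79 (0.51 to 1.18) and 0.48 (0.41 to 0.61), the second just under the call.

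PLK3, another polo-like kinase of the stress response, had 9.16 CPM in Control against 10.9 in Radiation, and 12.2 in Drug against 22.9 in Drug_Radiation. Drug_Radiation stood well above the other 3 libraries, and the ratio was 0.23 (-0.15 to 0.65) without QTP and 0.86 (0.81 to 1.01) with it, the highest among the members in that comparison. The PLK3 ratio without QTP was -0.19 in cells of 2500 to 5500 UMIs and -0.14 in cells of 6500 to 15000 UMIs. ZMAT3, a zinc finger protein that acts on RNA splicing, had 57.9 CPM in Control against 54.6 in Radiation, and 78.5 in Drug against 87.7 in Drug_Radiation. It was higher in both QTP libraries than in the others, while its radiation ratios were -0.08 and 0.16. GADD45A, a growth arrest protein first found through DNA damage, had 101 CPM in Control against 91.8 in Radiation, and 102 in Drug against 106 in Drug_Radiation. The 4 levels were close, with radiation ratios of -0.13 and 0.04. BTG2 lies at chr1:203305491-203309602, PLK2 at chr5:58453982-58460260, PLK3 at chr1:44800225-44805990 and CCNG1 at chr5:163437569-163446151.

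Among the genes of cell death, 3 of the 10 compared were called higher without QTP (PIDD1, AEN and FAS), beside 16.2% of all genes. With QTP 1 was (BBC3), beside 0.986%. BBC3, which encodes the death protein PUMA, had 13.3 CPM in Control against 17.7 in Radiation, and 14.5 in Drug against 23.8 in Drug_Radiation. Drug_Radiation was highest, and the ratio was 0.38 (0.09 to 0.74) without QTP and 0.68 (0.62 to 0.81) with it. FAS, a death receptor, had 11.8 CPM in Control against 18.7 in Radiation, and 16.5 in Drug against 15.3 in Drug_Radiation. Radiation was highest and Control lowest, and the ratio of 0.62 (0.33 to 0.997) without QTP stood beside -0.10 (-0.20 to -0.01) with it. AEN, a nuclease of apoptosis, had 16.9 CPM in Control against 29.4 in Radiation, and 27.03 in Drug against 26.6 in Drug_Radiation. Control alone was low, with ratios of 0.77 (0.53 to 1.08) and -0.02 (-0.10 to 0.05). PIDD1, the scaffold of a caspase-activating complex, had 3.80 CPM in Control against 8.72 in Radiation, and 7.71 in Drug against 10.2 in Drug_Radiation. Its Control value rests on 34 UMIs and its ratio of 1.02 (0.64 to 1.79) without QTP has a wide interval, while 0.36 (0.27 to 0.54) was found with QTP. PIDD1 overlaps by 107 bases the ribosomal gene RPLP2, on the opposite strand and at 3452 to 4628 CPM. The strand counted is not given in the sources used here, and a part of RPLP2 reads in PIDD1 was not tested.

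The members that encode receptors of the death ligand TRAIL were not called for radiation without QTP. TNFRSF10D, a TRAIL receptor that is no member, had 0.75 (0.49 to 1.11) there, past the call, and -0.04 with QTP. TNFRSF10B had 26.6 CPM in Control against 26.4 in Radiation, and 47.6 in Drug against 57.02 in Drug_Radiation. Both QTP libraries were high and both others low and equal within their intervals, giving radiation ratios of -0.01 (-0.25 to 0.23) and 0.26 (0.21 to 0.32). TNFRSF10A had 5.59 CPM in Control against 5.37 in Radiation, and 7.58 in Drug against 6.68 in Drug_Radiation, all low, with radiation ratios of -0.05 and -0.16. PHLDA3, which restrains AKT signalling, had 19.6 CPM in Control against 23.8 in Radiation, and 33.8 in Drug against 34.9 in Drug_Radiation. It too was higher with QTP, and its radiation ratios were 0.27 and 0.04. TP53I3, an oxidoreductase, had 12.4 CPM in Control against 17.5 in Radiation, and 12.5 in Drug against 16.2 in Drug_Radiation. Both irradiated libraries were higher than their partners, by 0.47 (0.17 to 0.83) and 0.35 (0.27 to 0.48), under the call each time. Without QTP the ratio was 0.03 in cells of 2500 to 5500 UMIs and -0.29 in cells of 6500 to 15000 UMIs. TP53INP1, a nuclear stress protein, went from 3.46 CPM in Control to 7.46 in Drug_Radiation with radiation ratios of 0.27 and 0.41. TRIAP1, a small mitochondrial protein that favours survival, had 0.31 and -0.18. SPATA18, of mitochondrial quality control, lay between 4.61 and 5.30 CPM with overlapping intervals in all 4 libraries and was not compared.

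Of the 4 repair genes 3 were called higher without QTP, beside 16.2% of all genes, and 0 with it, beside 0.986%. The count with QTP is near the share of all genes. DDB2, which binds damaged DNA, had 56.4 CPM in Control against 97.5 in Radiation, and 98.1 in Drug against 98.1 in Drug_Radiation. Control was low and the other 3 libraries were level, so the ratio was 0.78 (0.64 to 0.94) without QTP and 0.00 (-0.04 to 0.04) with it. XPC, which recognises distorted DNA at the start of nucleotide excision repair, had 32.3 CPM in Control against 52.2 in Radiation, and 50.04 in Drug against 42.3 in Drug_Radiation. Here Radiation and Drug were high and Control low, with ratios of 0.68 (0.49 to 0.89) and -0.24 (-0.30 to -0.19). POLH, a polymerase that copies past damaged bases, had 11.2 CPM in Control against 17.1 in Radiation, and 17.03 in Drug against 15.99 in Drug_Radiation and ratios of 0.57 (0.27 to 0.96) and -0.09 (-0.19 to 0.00). RRM2B, the p53-induced subunit of ribonucleotide reductase, had 31.2 CPM in Control against 38.2 in Radiation, and 35.8 in Drug against 45.98 in Drug_Radiation. It was above its partner in both irradiated libraries, with ratios of 0.29 (0.08 to 0.51) and 0.35 (0.30 to 0.42), under the call each time. Without QTP the ratio was -0.13 in cells of 2500 to 5500 UMIs and 0.19 in cells of 6500 to 15000 UMIs.

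Of the 4 metabolic genes 2 (FDXR and CMBL) were called higher without QTP, beside 16.2% of all genes. With QTP 0 were, near the share of all genes, 0.986%. FDXR, a mitochondrial reductase that feeds electrons to ferredoxin, had 39.1 CPM in Control against 63.1 in Radiation, and 62.2 in Drug against 56.7 in Drug_Radiation. Control was the low library, with ratios of 0.68 (0.51 to 0.87) and -0.13 (-0.18 to -0.08). CMBL, a cytosolic hydrolase, had 46.8 CPM in Control against 67.6 in Radiation, and 59.6 in Drug against 54.8 in Drug_Radiation, with Radiation highest and ratios of 0.52 (0.36 to 0.70) and -0.12 (-0.17 to -0.07). TIGAR, a phosphatase that slows glycolysis, had 69.96 CPM in Control against 77.2 in Radiation, and 92.5 in Drug against 93.9 in Drug_Radiation. Both QTP libraries were the higher ones, and the radiation ratios were 0.14 and 0.02. SESN1, a sestrin that restrains mTOR signalling, had 29.7 CPM in Control against 27.9 in Radiation, and 23.9 in Drug against 27.7 in Drug_Radiation. Control was the highest library and Drug the lowest, with radiation ratios of -0.09 (-0.32 to 0.14) and 0.21 (0.14 to 0.29).

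The cytokine GDF15, which stressed cells secrete, is encoded at chr19:18374731-18389176 and had 128 CPM in Control against 266 in Radiation, and 268 in Drug against 389 in Drug_Radiation. Control was lowest, Radiation and Drug were level, and Drug_Radiation was highest. The radiation ratio was 1.05 (0.96 to 1.16) without QTP and 0.53 (0.51 to 0.56) with it, and the QTP ratio was 1.06 (0.98 to 1.16) without radiation and 0.54 (0.50 to 0.59) with it. GDF15 was the only member called higher in all 5 comparisons. FBXO22, a substrate adaptor of a ubiquitin ligase, had 56.8 CPM in Control against 75.9 in Radiation, and 90.5 in Drug against 83.6 in Drug_Radiation and radiation ratios of 0.41 (0.27 to 0.57) and -0.11 (-0.16 to -0.07). RPS27L, a ribosomal protein, had 1696 CPM in Control against 1540.1 in Radiation, and 1205 in Drug against 1643 in Drug_Radiation. Drug was the low library and the radiation ratios were -0.14 (-0.17 to -0.11) and 0.45 (0.44 to 0.46). RPS27L is a near copy of RPS27, whose own ratios were -0.08 and 0.36, and how reads were split between them is not known, so its values are uncertain.

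Genes that overlap on the chromosome can share reads. Of the 31 members, 16 overlap another counted gene in GENCODE 29, 15 of them one on the opposite strand. Besides PIDD1, the larger neighbours were LSM3 beside XPC, at 123 to 177 CPM, ABHD14B beside PCBP4 on the same strand, at 46.7 to 87.2 CPM, its other neighbour ABHD14A, at 10.8 to 17.1 CPM, and LACTB beside RPS27L, at 18.6 to 25.5 CPM. ABHD14B had 46.7 CPM in Control against 71.8 in Radiation, the same direction as PCBP4. It had 87.2 in Drug against 73.1 in Drug_Radiation, where PCBP4 went the other way. ACTA2 beside FAS lay at 15.98 to 31.05 CPM and was higher in both irradiated libraries than in their partners. NDUFAF6 beside TP53INP1 lay at 11.9 to 16.4 CPM and FAM228B beside TP53I3 at 6.14 to 10.7 CPM, both lower in the irradiated libraries, where TP53INP1 and TP53I3 were higher. Their part in the ratios was not tested.

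**Figure D2:**
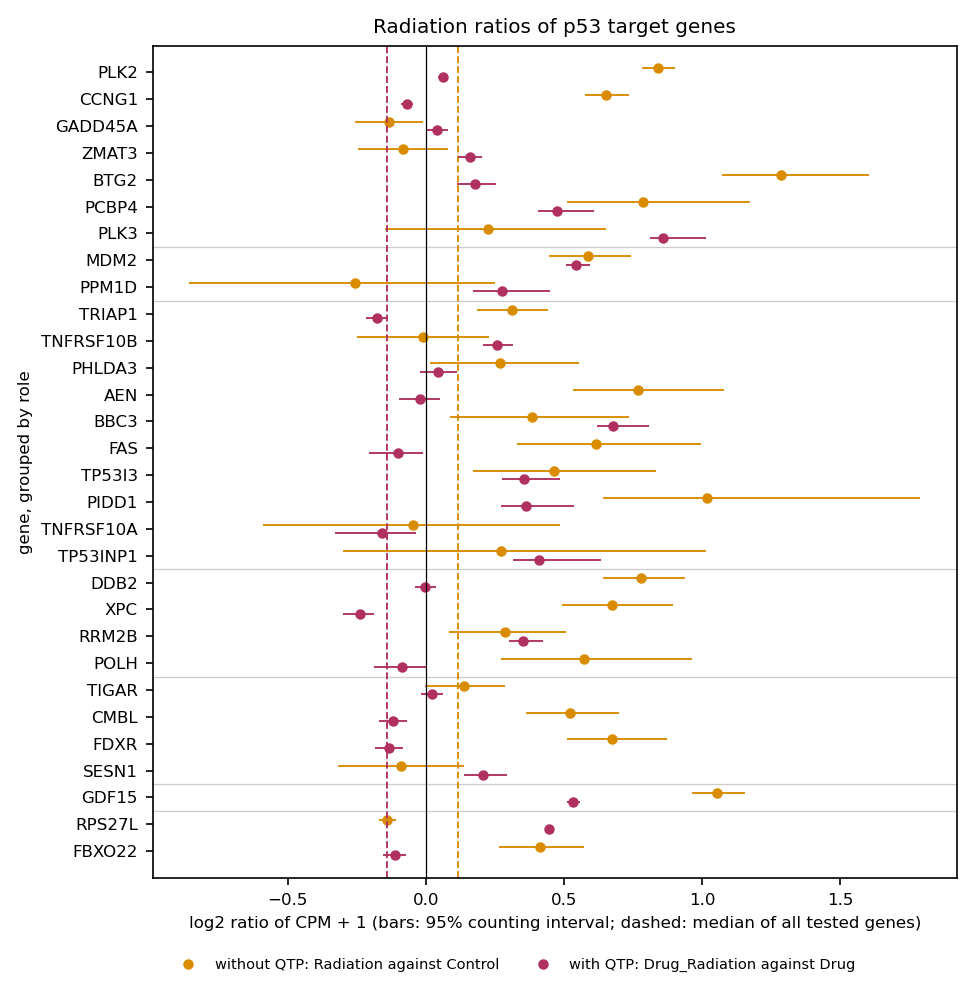
Log2 ratio of CPM plus 1 for radiation without QTP (Radiation against Control) and with QTP (Drug_Radiation against Drug), with bars for the 95% counting interval, which leaves out the added 1 CPM, and dashed lines at the median of all tested genes. MDM2 has nearly the same ratio in both comparisons on this scale. BTG2, PLK2, CCNG1, DDB2, XPC, FDXR and AEN lie far to the right without QTP and between -0.24 (XPC) and 0.18 (BTG2) with it.

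The radiation ratio differed between the arms by at least 0.5 for 16 of 30 members, beside 38% of all genes. For 13 it was lower with QTP, beside 32.3% of all genes, and for 3 (PLK3, RPS27L and PPM1D) higher, beside 5.68%. The share of members lower with QTP is thus near, and above, that of all genes, and the median difference was -0.27 for members and -0.29 for all genes. BTG2 had the lowest difference, -1.11, followed by XPC at -0.91 and FDXR at -0.81. PLK3 had the highest at 0.63. The difference itself has no replicate check. In cells of 6500 to 15000 UMIs the ratios without and with QTP were 0.97 and 0.35 for BTG2 and 0.24 and -0.22 for XPC. FDXR had 0.13 in both arms there, and PLK3 had -0.14 without and 0.68 with QTP. TMM scaling, which centres the libraries on genes they share, moved the median of all genes for radiation with QTP from -0.14 to 0.03. Under it 10 members were called higher there, beside 2.92% of all genes, and the ratios of FAS, FDXR, CCNG1, FBXO22, CMBL, AEN, POLH, DDB2 and TRIAP1 with QTP turned from below to above 0, between 0.00 and 0.18.

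QTP without radiation, Drug against Control, gave 14 of 30 members called higher, beside 46.4% of all genes, and 0 lower, beside 2.83%. The share of members called higher was close to that of all genes. The median was 0.44 for members and 0.47 for all genes, and 1 member, GDF15, reached 2-fold, beside 7.21%. PIDD1 had 0.86 (0.52 to 1.56), TNFRSF10B 0.82 (0.65 to 1.03), DDB2 0.79 (0.67 to 0.93), CCNG1 0.78 (0.71 to 0.85) and PHLDA3 0.76 (0.57 to 1.02). RPS27L was lowest at -0.49 (-0.52 to -0.47), beside -0.29 for RPS27, and SESN1 had -0.31 (-0.50 to -0.13). TMM scaling moved the median of all genes from 0.47 to 0.09, and 2 members (GDF15 and PIDD1) were then called higher, beside 12.3% of all genes, and 2 (RPS27L and SESN1) lower, beside 6.83%.

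On irradiated cells, Drug_Radiation against Radiation, 7 members were called higher, beside 15.8% of all genes, and 0 lower, beside 2.64%. The median of the members, 0.11, was close to that of all genes, 0.18. TNFRSF10B had 1.08 (0.96 to 1.27) and PLK3 1.01 (0.84 to 1.31), both past 2-fold, beside 1.11% of all genes. PPM1D followed with 0.83 (0.60 to 1.34), ZMAT3 with 0.67 (0.58 to 0.79) and TP53INP1 with 0.65 (0.40 to 1.15). BTG2 was lowest at -0.35 (-0.49 to -0.24). TNFRSF10B, PLK3 and PPM1D kept the call under all 8 alternatives of scaling, cells and pseudocount that give a member value, 3 of the 7. For Drug against Control 1 of 14 did (GDF15), and for Drug_Radiation against Drug 1 of 4 (PLK3).

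**Figure D3:**
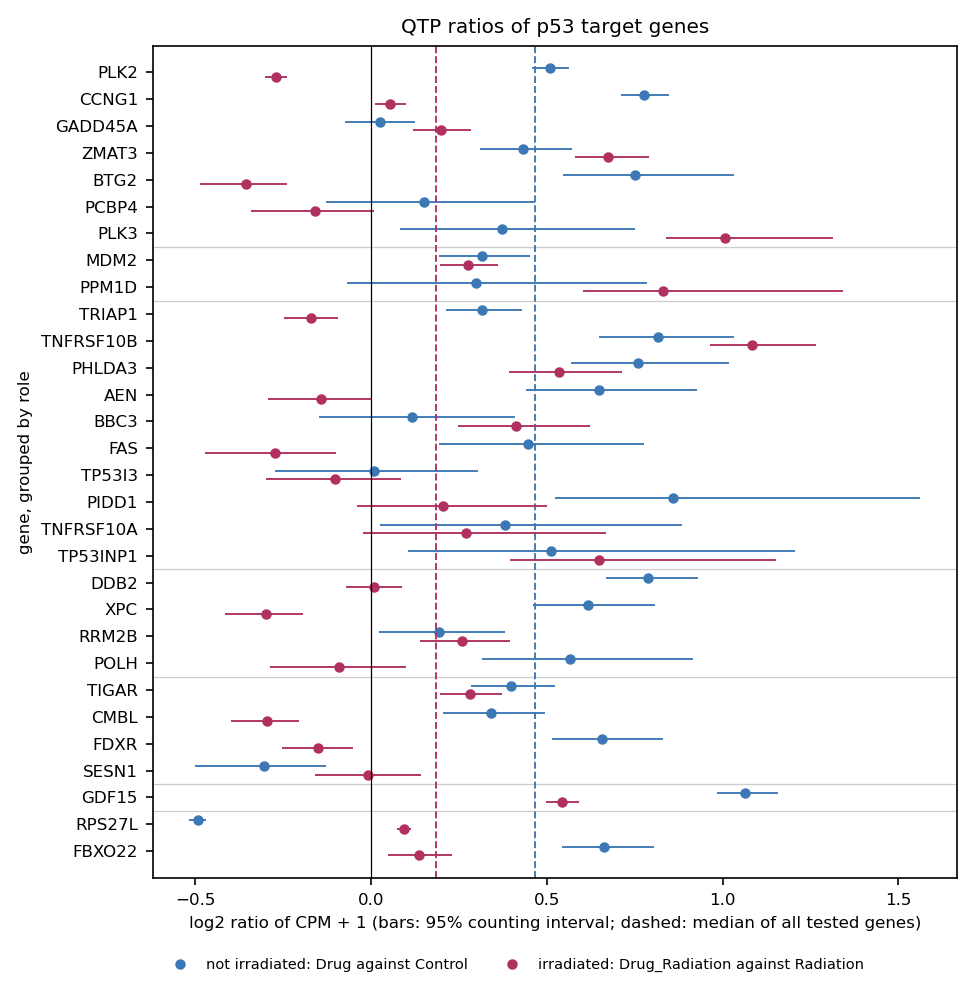
Log2 ratio of CPM plus 1 for QTP without radiation (Drug against Control) and on irradiated cells (Drug_Radiation against Radiation), with bars for the 95% counting interval and dashed lines at the median of all tested genes. Most members lie around the dashed line of their comparison, with TNFRSF10B, PLK3, PPM1D and ZMAT3 to the right of it on irradiated cells and SESN1 and RPS27L to the left without radiation.

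Both treatments together, Drug_Radiation against Control, gave 19 of 30 members called higher, beside 32.4% of all genes, and 0 lower, beside 3.68%. By the 2-fold size 4 were higher, beside 4.76%: GDF15 at 1.60 (1.52 to 1.69), PLK3 at 1.23 (1.003 to 1.65), PIDD1 at 1.22 (0.93 to 1.96) and TNFRSF10B at 1.07 (0.91 to 1.29). The median was 0.57 for members and 0.33 for all genes. MDM2 had 0.86, BBC3 0.79 and PHLDA3 0.80, and 7 of the 19 kept the call under all 8 alternatives (GDF15, PLK3, TNFRSF10B, TP53INP1, MDM2, PHLDA3 and BBC3). The 5 comparisons share libraries, so their values stand side by side and are not independent.

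Depth moved with radiation without QTP as well, so the same comparison was made in cells of closer depth. In cells of 2500 to 5500 UMIs, limits set after the depths were known, Control had 1140 cells with a median of 3445 UMIs and Radiation 1100 cells with a median of 4220. There 9 of 30 members were called higher for radiation without QTP and 1, PPM1D at -0.63, lower, beside 12.4% and 10.9% of all genes in these cells. In cells of 6500 to 15000 UMIs, with only 173 cells in Control, 9 were called higher and 1, again PPM1D, lower, beside 13.2% and 10.3% of all genes. BTG2 had 1.03 and 0.97 in these ranges, GDF15 1.04 and 0.65, and PLK2 0.77 and 0.57. DDB2 had 0.59 and 0.59. These genes and PCBP4 were the 5 of 14 that kept the call under all 9 alternatives. MDM2 was under the call, with 0.45 and 0.32, as were FDXR with 0.47 and 0.13 and POLH with 0.42 and 0.18. AEN went to 0.04, XPC to 0.24 and CCNG1 to 0.37 in the deeper range, and PIDD1 to 0.18 in the shallower.

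Within a library the deepest tertile of cells, set against the shallowest, had a member median of 0.52 (Control), 0.15 (Radiation), 0.16 (Drug) and 0.05 (Drug_Radiation). The medians of all genes were 0.27, 0.10, 0.11 and 0.04. TP53I3 was higher in the deepest cells of every library, with 1.44 (Control), 1.22 (Radiation), 0.78 (Drug) and 0.69 (Drug_Radiation). In Control AEN had 1.51 and FDXR 1.29, and these are among the genes whose radiation ratio was smaller in cells of closer depth. With QTP the libraries were of like depth. There the range of 6500 to 15000 UMIs gave 2 members called higher, beside 1.13% of all genes. They were PLK3 at 0.68 and PCBP4 at 0.77, and MDM2 had 0.30, GDF15 0.45 and BBC3 0.44.

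**Figure D4:**
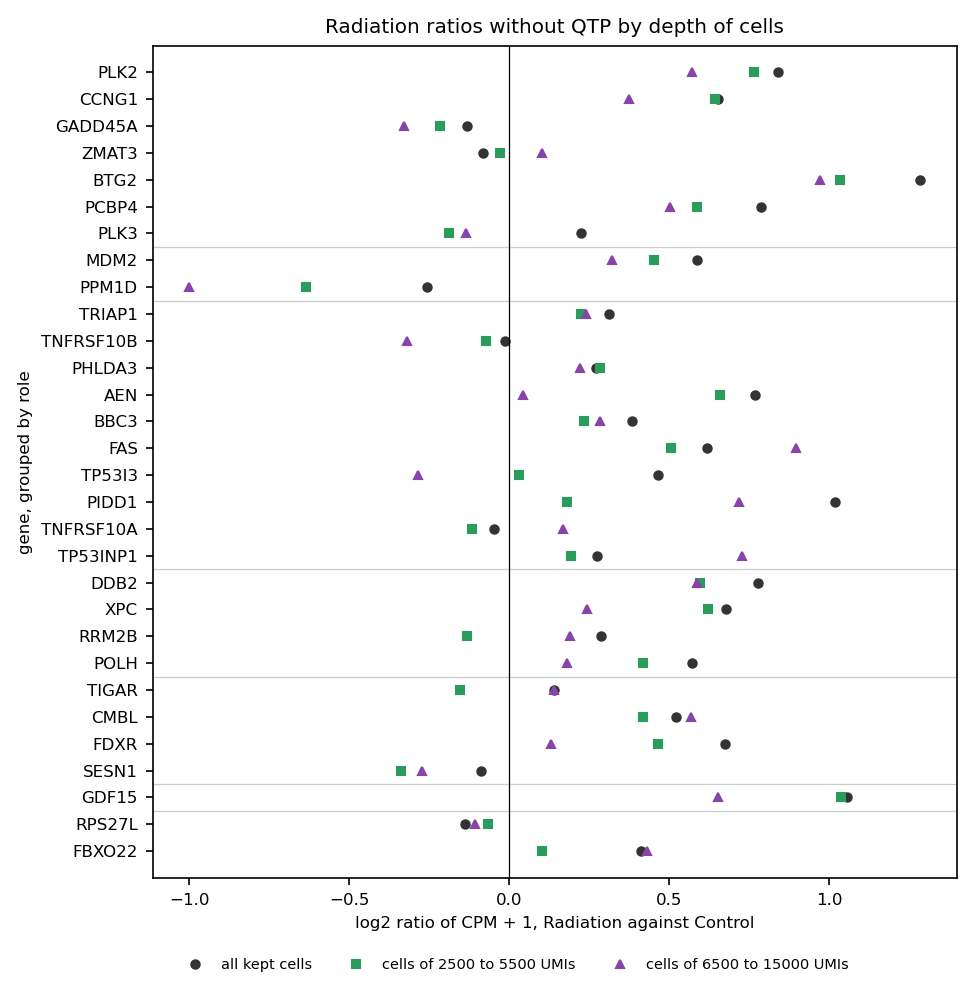
Log2 ratio of CPM plus 1 for Radiation against Control in all kept cells, in cells of 2500 to 5500 UMIs and in cells of 6500 to 15000 UMIs. BTG2, GDF15, PLK2, DDB2 and PCBP4 stay at or above 0.5 in all 3 sets. AEN, FDXR, XPC and TP53I3 drop in the deepest set, which holds 173 Control cells. TP53I3 also drops, to 0.03, in cells of 2500 to 5500 UMIs.

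The level of CDKN1A, which encodes the cell cycle inhibitor p21, varied from cell to cell, and members were compared between cells with and without a CDKN1A UMI. Cells were put on either side after thinning each to 1000 UMIs, and the member ratios were made from their full counts. Cells with one were 406 of 3183 in Control (12.8%), 673 of 2425 in Radiation (27.8%), 965 of 3802 in Drug (25.4%) and 2246 of 6990 in Drug_Radiation (32.1%). They were also deeper, with a median of 2866 UMIs against 2266 in Control and 19238 against 17424 in Drug_Radiation. In these cells 27 of 30 members were above 0 in Control, beside 60.9% of all genes. The counts were 26 in Radiation (55.6% of all genes), 30 in Drug (62.1%) and 29 in Drug_Radiation (58.6%). The member medians were 0.24, 0.22, 0.24 and 0.15, and those of all genes 0.08, 0.02, 0.02 and 0.01.

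With all depths together, GDF15 had the highest ratio of any member between these cells in every library, with 0.73 (Control), 0.66 (Radiation), 0.77 (Drug) and 0.54 (Drug_Radiation). MDM2 had 0.38 (Control), 0.38 (Radiation), 0.51 (Drug) and 0.26 (Drug_Radiation), and TP53I3 had 0.43 (Control), 0.44 (Radiation), 0.48 (Drug) and 0.43 (Drug_Radiation). The Control interval of TP53I3 (-0.28 to 1.15) included 0. RPS27L differed little, with 0.09 (Control), 0.11 (Radiation), 0.05 (Drug) and 0.06 (Drug_Radiation). PLK3 was near 0 in most libraries, with -0.06 (Control), -0.05 (Radiation), 0.21 (Drug) and 0.03 (Drug_Radiation). Within the middle tertile of cells by depth, where the medians of both kinds of cell were closer, 19, 25, 30 and 28 members were above 0 in the order Control, Radiation, Drug and Drug_Radiation. All genes gave 54%, 51%, 56.6% and 58.4% there. GDF15 had 0.74 (Control), 0.94 (Radiation), 0.87 (Drug) and 0.55 (Drug_Radiation) in that tertile and was no longer the highest member in Drug, where PPM1D had 1.01 and BTG2 0.90, nor in Control, where PPM1D had 1.67 from 3 and 5 UMIs. MDM2 had 0.11 (Control), 0.39 (Radiation), 0.59 (Drug) and 0.36 (Drug_Radiation). TP53I3 had -0.20 (Control), 0.50 (Radiation), 0.48 (Drug) and 0.24 (Drug_Radiation), its Control value from 2 and 16 UMIs. Cells of 1 library are not replicates, and a single line holds no cell type that lacks these genes, so the level of free RNA in these counts was not measured.

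**Figure D5:**
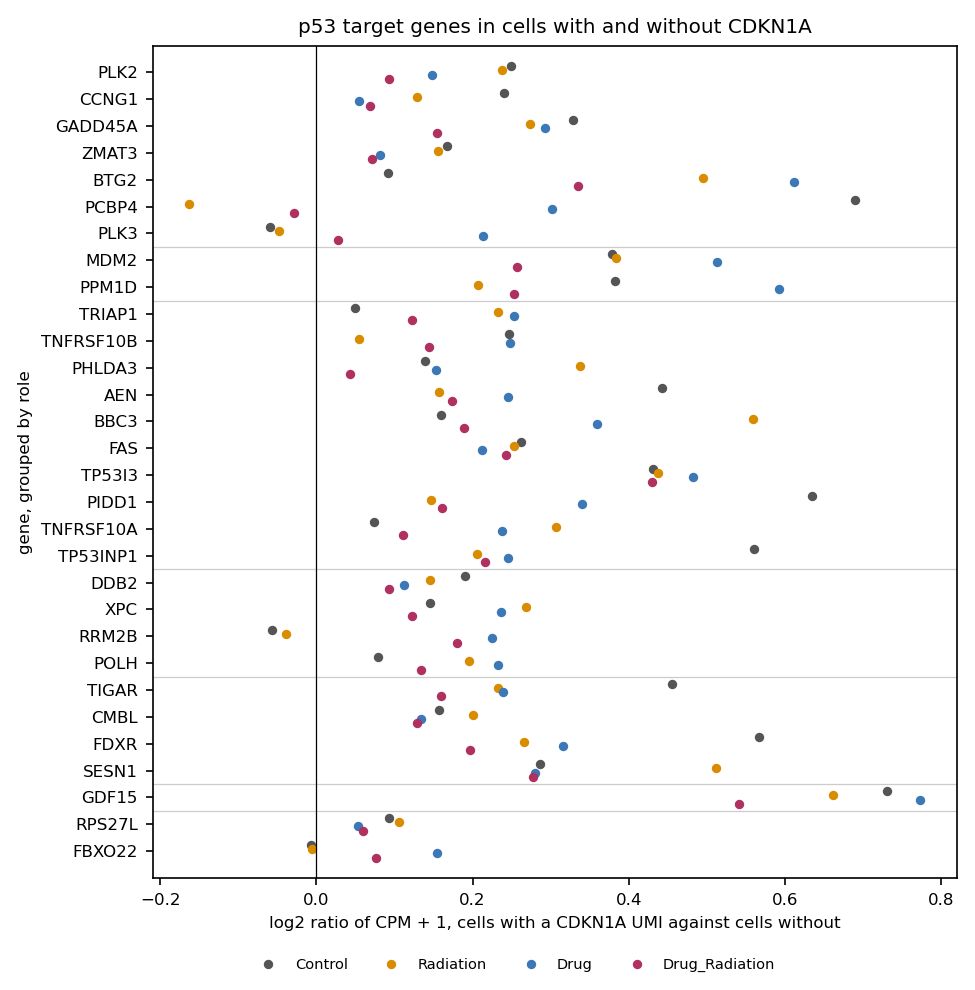
Log2 ratio of CPM plus 1 for each member between cells with and without a CDKN1A UMI, within Control, Radiation, Drug and Drug_Radiation. Nearly all points lie to the right of 0, GDF15 is the rightmost member in every library, and RPS27L, FBXO22 and PLK3 lie close to 0 in most libraries.

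GDF15 was also the member with the highest Fano factor. With cells of the QTP libraries thinned to 6000 UMIs, its Fano factor, the variance of UMIs over cells divided by their mean, was 4.73 in Drug and 7.05 in Drug_Radiation. The median over all genes was 1.06 and 1.05, and CDKN1A had 2.28 and 2.18. The top 10% of cells held 45.7% of its UMIs in Drug and 39.5% in Drug_Radiation, while 42.8% and 26.8% of cells had none. For MDM2, at a lower level, the top 10% held more, 53.8% and 45.0%, and 70.3% and 59.4% of cells had none. GDF15 had at least 10 UMIs in 46 cells (1.21%) of Drug and 119 (1.70%) of Drug_Radiation, and its highest cells had 71 and 188. MDM2 had Fano factors of 1.59 in both libraries, and PLK2 had 1.49 and 1.38. FAS and XPC lay near 1, the value of Poisson sampling, with 1.02 and 1.01 in Drug and 1.03 and 1.06 in Drug_Radiation. Their means in Drug were 0.09 and 0.28 UMIs a cell, against 1.54 for GDF15. At such low means the Fano factor says little about the spread between cells.

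Dividing cells, those with at least 1% of UMIs in a list of S phase or of G2 and M phase genes, were few: 53 (Control), 34 (Radiation), 116 (Drug) and 58 (Drug_Radiation). GDF15 was lower in them than in other cells, with -1.77 (Control), -1.37 (Radiation), -1.14 (Drug) and -1.35 (Drug_Radiation). The Control and Radiation values rest on 7 and 25 GDF15 UMIs in dividing cells. POLH was higher in them, with 2.11 (Control), 1.41 (Radiation), 1.07 (Drug) and 0.98 (Drug_Radiation). Its Control value rests on 9 UMIs in dividing cells and has a wide interval (1.04 to 3.20). FAS had 0.82 (Control), 0.62 (Radiation), 0.73 (Drug) and 0.77 (Drug_Radiation). The interval of FAS included 0 in Control and Radiation. With dividing cells left out, no member ratio of the 150 moved further than from the middle to an end of its interval. GDF15 for radiation with QTP came to 0.512, just below its interval of 0.513 to 0.557. Only 1 ratio changed sign, DDB2 for radiation with QTP, which was near 0.

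CDKN1A had 172 CPM in Control against 393 in Radiation, and 359 in Drug against 478 in Drug_Radiation, with the irradiated library of each pair the higher. Among the regulators of p53 read beside it, the checkpoint kinase CHEK2 had 0.52 for radiation without QTP and the kinase ATR -0.51, both past the call. CHEK1, another checkpoint kinase, had -0.43 with QTP, under the call. The other values without QTP were 0.19 for MDM4, the partner of MDM2, 0.05 for ATM, 0.14 for CHEK1, 0.27 for TP53BP1, 0.28 for HIPK2 and 0.00 for USP7. The p53 ubiquitin ligases COP1 and RCHY1 had -0.21 and -0.03. CDKN2A, which encodes the MDM2 inhibitor ARF besides p16, lay at 0.894 CPM in Control against 0.488 in Radiation, and 6.61 in Drug against 6.88 in Drug_Radiation, below the mean needed. The p53 relatives TP63 and TP73 had at most 0.436 CPM.

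A second list held 40 further p53 targets, of which 32 were compared. For radiation without QTP 9 were called higher and 1 lower, beside 16.2% and 4.89% of all genes, and with QTP 0 either way, beside 0.986% and 4.51%, with medians of 0.30 and 0.02. Both medians lay between those of the members and of all genes. By the smaller of both ratios, the highest of the same sign were KITLG, a growth factor, with 0.65 and 0.19, CES2, a carboxylesterase, with 0.97 and 0.19, the receptor EDA2R with 0.56 and 0.17, and SUSD6 with 0.27 and 0.15. KITLG, EDA2R and SUSD6 rest on 27, 37 and 31 UMIs in Control. The interval of SUSD6 without QTP (-0.30 to 1.01) included 0. Only 3 were below 0 in both: NINJ1 with -0.17 and -0.20, ASCC3 with -0.23 and -0.10, and APAF1, the apoptosome scaffold, with -0.56 and -0.02. BAX, a pore-forming death protein, had 0.09 and 0.10.

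GDF15 is also a known target of the integrated stress response, so 15 genes of that response were read beside it. For QTP without radiation the median of the 13 compared was 1.02 (all genes 0.47), with 12 called higher (46.4% of all genes), and for radiation without QTP it was 0.37 (all genes 0.12), with 6 called higher and 1 lower (16.2% and 4.89%). The median for radiation with QTP was -0.14, as for all genes. DDIT3, its death-linked factor, had 1.14 for QTP without radiation, ATF3 0.89, TRIB3 0.63 and SESN2, which both lists hold, 0.66. For radiation with QTP the same genes had -0.29, -0.16, -0.50 and 0.11. How much of the GDF15 values goes with this response was not tested.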

How the data were processed

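For every barcode and gene the authors deposited raw UMI counts, which were not normalized. The build hg38 and Seurat 4.3.3 are named per the submitters' processing notes. Per the labels' protocols a PIPseq V T2 3′ kit made the libraries, while the sample descriptions name another platform, which leaves the kit unsettled. Not given in the sources used here are the aligner, counter, annotation, strand and barcode calling. The lowest deposited barcodes held 1009 (Control), 1592 (Radiation), 6427 (Drug) and 6244 UMIs (Drug_Radiation).

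Cells with at least 500 UMIs, at least 300 genes and under 20% mitochondrial UMIs were kept, 3183 of 3184, 2425 of 2428, 3802 of 3806 and 6990 of 7006 in that order. No doublet caller was run. UMIs were summed per library and divided by the nuclear-encoded total (CPM). Ratios are log2 of CPM plus 1, for the 9835 of 37468 features with a mean of at least 5 CPM over the 4 libraries. Intervals (95%) are exact Poisson for CPM and exact conditional binomial for ratios. The latter leave out the added 1 CPM, so for low genes the printed ratio is off their centre. All cover counting error only. With 1 library per group no test was made. The thresholds were a log2 ratio of 0.5 either way and 2-fold.

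The members were the 31 listed symbols, all of which are named. The members, the other gene lists and the comparisons were chosen with earlier results of these data known. Other targets with the same sign in both radiation comparisons were ranked by the ratio nearer 0, and the 4 highest and 4 lowest were to be named, of which only 3 were negative. All regulators were to be named, of which 1 is not reported here, and DDIT3, ATF3, TRIB3 and SESN2 of the stress response. Promoter windows came from RefSeq, and gene positions from GENCODE 29, in which all 31 members were found. Alternatives were no cell filter, a filter raised to 1000 UMIs and 500 genes with under 10% mitochondrial UMIs, TMM scaling (edgeR 4.0.16), DESeq2 1.42.0 size factors, equal weight per cell, cells of 6500 to 15000 UMIs, cells outside division, a mean of 20 CPM, no low filter and a pseudocount of 5 CPM. Cells of 2500 to 5500 UMIs and the middle tertile of cells by depth were added after seeing the data. On simulated counts for the 9835 genes, intervals held the simulated ratio for 95.2% to 95.6% of genes in the 5 comparisons. Scripts used Python 3.11.15, scipy 1.17.1 and R 4.3.3.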

Additional observations from a re-analysis of the deposited data

Results flagged for a closer look

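For 9 of 30 members the radiation ratio had opposite signs without and with QTP, with counting intervals on opposite sides of 0. The same held for 28.6% of all 9835 genes, so the share of members is near that of all genes. The difference between the arms was not tested, since each rests on 1 library a group. The ratio was above 0 without QTP and below 0 with it for 7 of them, beside 24.9% of all genes. With QTP minus without, the log2 difference was -0.91 for XPC, -0.81 for FDXR, -0.72 for CCNG1, -0.72 for FAS, -0.64 for CMBL, -0.53 for FBXO22 and -0.49 for TRIAP1. The order was the other way round for RPS27L, with a difference of 0.59, and for GADD45A, with 0.17, beside 3.63% of all genes. Under TMM scaling the ratio with QTP was above 0 for FAS (0.07), FDXR (0.05), CCNG1 (0.11), CMBL (0.06), FBXO22 (0.07) and TRIAP1 (0.00), so the opposite signs were lost for these genes. XPC still had -0.06. In cells of 6500 to 15000 UMIs the ratio with QTP was above 0 for FAS (0.20), FDXR (0.13), CCNG1 (0.07) and CMBL (0.16). FDXR had 0.13 there without QTP as well. FBXO22 (-0.04), TRIAP1 (-0.06) and XPC (-0.22) stayed below 0 with QTP and above 0 without it. RPS27L kept its opposite signs, with -0.11 without and 0.40 with QTP, and GADD45A lost them, with -0.33 and -0.01.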

How the results depend on the processing

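No paired analysis was possible because each group is 1 library and the labels give no replicate numbers, and for the same reason no library could be left out. Of 116 counts recomputed, 93 were within 1.5 times the reported count or equal to it. For members called higher in Drug_Radiation against Drug, TMM scaling gave 10 and DESeq2 scaling 7. Cells of 6500 to 15000 UMIs gave 2 and a mean of at least 20 CPM 2. The shares of all genes were 2.92%, 2.47%, 1.13% and 0.902% in that order. For Drug against Control both scalings gave 2 higher and 2 lower, and those cells 5 higher and 4 lower. All genes gave 12.3% and 6.83% under TMM scaling, 11.4% and 7.41% under DESeq2 scaling, and 34.0% and 5.57% in those cells. For Drug_Radiation against Radiation, DESeq2 scaling gave 3 higher and 1 lower, beside 6.35% and 5.87% of all genes. A mean of at least 20 CPM gave 4 higher, beside 10.1%, and those cells 2 lower, beside 6.14%. For Drug_Radiation against Control, TMM and DESeq2 scaling and those cells each gave 10 higher, beside 16.1%, 13.7% and 24.8% of all genes. Those cells also gave 1 lower, beside 7.98%. For Radiation against Control, cells of 6500 to 15000 UMIs and cells of 2500 to 5500 UMIs each gave 9 higher and 1 lower. All genes gave 13.2% and 10.3% in the former and 12.4% and 10.9% in the latter. In the former, 7 members differed between arms, beside 32.1% of all genes. The cause of these changes was not tested. Of member ratios past a log2 of 0.5 as reported, 7 changed sign, all in cells of 6500 to 15000 UMIs. For Drug against Control they were BTG2 (-0.053), FDXR (-0.49), POLH (-0.026) and AEN (-0.58), and for Drug_Radiation against Control PPM1D (-0.20), FDXR (-0.36) and AEN (-0.29). Of all 150 member ratios, smaller ones included, 23 changed sign under TMM scaling, 28 under DESeq2 scaling and 36 in those cells. The member median minus that of all genes for Radiation against Control was 0.32, and 0.19 and 0.21 in the deeper and shallower ranges. For Drug_Radiation against Drug it was 0.25, and 0.32 in the deeper range. Depth limits Control most, where 34 UMIs carried PIDD1.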

Other observations

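The members were also summed by role. The 4 repair genes together had 131 CPM in Control and 205, 201 and 202 CPM in Radiation, Drug and Drug_Radiation, with the treated libraries level. The 4 metabolic genes had 186 CPM in Control and 236, 238 and 233 CPM in the treated libraries, in the same order. The 7 arrest genes, PLK2 and CCNG1 the most abundant, had 757, 1182, 1094 and 1132 CPM. The death genes, SPATA18 included, had 202, 261, 283 and 296 CPM. After thinning to 1000 UMIs, a cell held on average 3.06 (Control), 3.69 (Radiation), 3.35 (Drug) or 3.88 (Drug_Radiation) member UMIs. Cells with no member UMI were 5.84%, 3.34%, 4.55% and 2.79% in that order. No test was made of these sums.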
